A study of Mus musculus with 405 samples.

Results

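Synaptic vesicle and release machinery genes were followed through a transcriptional screen of environmental chemicals in mouse cortical neuron cultures. They are the synapsins Syn1 and Syn2, the vesicle membrane proteins synaptophysin (Syp) and Sv2a, the fusion proteins Snap25 and Vamp2, complexin 1 (Cplx1), synaptotagmin 1 (Syt1) and the vesicular glutamate transporter Slc17a7, also known as VGLUT1. These 9 genes were chosen by symbol, and all 9 were present among the 13304 genes of the screen table and among the 23893 genes of a count table for pyraclostrobin. Cultures came from cortex of embryonic day 15 embryos of C57BL/6J dams mated to CAST/EiJ males, so every group carried the same hybrid genotype. They received a non-cytotoxic dose of a single chemical or the vehicle DMSO on day 7 in vitro for 24 h. The screen held 49 vehicle libraries and 344 libraries of 297 chemicals, of which 282 had 1 library, 13 had 2, diethyltoluamide had 4 and topotecan had 32. Doses lay between 0.01 and 10 µM, and 257 chemicals were given at 10 µM. The count table held 4 libraries of pyraclostrobin at 0.1 µM and 4 of vehicle. The cultures were mixed and mostly neuronal, and dividing cells had been stopped in all groups with 5-fluoro-2′-deoxyuridine and uridine.

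A chemical synapse releases transmitter when vesicles fuse with the presynaptic membrane. Transporters such as Slc17a7 load glutamate into the vesicle, synapsins tether vesicles in a reserve near the release site, and the vesicle protein Vamp2 pairs with Snap25 and syntaxin on the plasma membrane to form the SNARE complex that drives fusion. Complexins bind the assembled complex, and Syt1 is the vesicle calcium sensor that triggers fast fusion. Syp and Sv2a are abundant proteins of the vesicle membrane. In developing cortical cultures these genes are switched on as neurons mature and form synapses, and glia express most of them weakly or not at all.

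The genes differ widely in size and level. In mm9, Vamp2 spans only 3.90 kb at chr11:68901992-68905886, whereas Syt1 spans 513 kb at chr10:107934706-108448038. Between these lie Slc17a7 (12.2 kb, chr7:52419291-52431508), Sv2a (14.4 kb, chr3:95985074-95999444), Syp (14.8 kb, chrX:7215597-7230382), Cplx1 (31.5 kb, chr5:108947573-108979043), Syn1 (60.5 kb, chrX:20437637-20498130), Snap25 (69.0 kb, chr2:136539189-136608164) and Syn2 (148 kb, chr6:115084920-115232644). Levels in the 4 vehicle libraries of the count table were taken in CPM per kb of exon. CPM are counts scaled to a common library total, here with the totals adjusted by TMM scaling. The level was 361 ± 25.7 (SD, n = 4) for Vamp2, 257 ± 18.9 for Cplx1 and 189 ± 7.48 for Syp. It was 167 ± 30.8 for Syn1, 145 ± 34.2 for Syt1, 109 ± 15.2 for Sv2a, 109 ± 7.84 for Slc17a7, 73.7 ± 4.05 for Snap25 and 49.3 ± 6.90 for Syn2. By this measure Vamp2 was highest and Syn2 lowest in all 4 vehicle libraries. Exon bases were joined over all transcripts of a gene, from an annotation other than the RefSeq models used for counting. The order of genes by level is therefore approximate. Within a library Syn1 stood above Syt1 and Syt1 above Sv2a in all 4, although the ranges of these neighbours overlapped. Syp and Syn1 changed places between libraries, as did Sv2a and Slc17a7, so neither pair differed beyond the spread. The exons of Syp share 875 bases (16.8%) with Gm14703, a lincRNA on the opposite strand, and the kit did not mark strand, so reads there cannot be assigned to one or the other. Syn1 shares 9 exon bases with Araf.

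Promoter sequence is shown for Syn1 and Syt1, which had the largest declines of the 9 genes in the screen with the classes of respiratory inhibitors and with topotecan, respectively. Each is the stretch of 250 bases before a RefSeq start site in GRCm38.p6, read 5′ to 3′ on the gene's own minus strand. Capitals mark CAGCACC, a core of the element bound by the neuronal repressor REST, and TGACGTCA, the cAMP response element.
Syn1, chrX:20920919-20921168: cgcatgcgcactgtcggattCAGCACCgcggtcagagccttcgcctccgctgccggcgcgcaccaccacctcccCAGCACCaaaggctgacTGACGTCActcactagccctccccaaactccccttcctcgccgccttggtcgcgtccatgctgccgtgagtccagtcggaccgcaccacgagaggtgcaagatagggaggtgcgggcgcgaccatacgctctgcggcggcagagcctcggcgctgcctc
Syt1, chr10:109010976-109011225: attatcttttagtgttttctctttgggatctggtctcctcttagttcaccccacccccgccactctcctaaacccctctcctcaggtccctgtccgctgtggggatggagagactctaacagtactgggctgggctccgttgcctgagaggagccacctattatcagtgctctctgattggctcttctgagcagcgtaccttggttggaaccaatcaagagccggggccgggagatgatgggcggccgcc
CAGCACC begins 230 and 176 bases before the Syn1 start and TGACGTCA begins 159 bases before it, whereas the Syt1 window holds none of the letters searched. Both strands of 9 windows that covered 7 of the genes were searched. Beside these letters the search took in GGACAGC, from the other part of the REST element, the shorter TGACG, which lies within TGACGTCA, and the TATA box, searched as TATAAA. Syn1 was the only one of the 7 genes with a window that held any of them. Among 32851 promoter windows of the same length, CAGCACC was held by 5.73% and GGACAGC by 5.28%. The shorter TGACG was held by 17.8%, the full TGACGTCA by 1.55% and TATAAA by 12.4%. A match describes the letters of a window and says nothing on binding.

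Pyraclostrobin, a strobilurin fungicide that inhibits mitochondrial complex III, was compared with vehicle in the count table to measure its effect on transcript abundance with replicates. All 9 genes were lower with pyraclostrobin, by 1.81-fold (Sv2a) to 2.99-fold (Slc17a7), and for none of them did the 4 pyraclostrobin libraries overlap the 4 vehicle libraries. The share of all genes with no such overlap was not counted, so this separation is a description only. Across all 12324 genes tested with edgeR's quasi-likelihood test at an adjusted p of 0.01, 9.22% were lower and 12.1% were higher, and the median log2 fold change was 0.00 to 2 decimals. Library totals lay between 2409623 and 7833440 counts, and the pyraclostrobin libraries, at up to 2550437, were all smaller than the smallest vehicle library, at 2778615. In both groups the library numbered 1 stood apart from the other 3. Its counts differed from theirs by a chi-square per degree of freedom of 8.87 to 12.3 with pyraclostrobin and 21.9 to 29.3 with vehicle, against 1.86 to 3.24 and 2.26 to 2.81 among the other libraries. The values below, in CPM after TMM scaling, follow the library numbers 1 to 4.

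Both synapsins, which tether vesicles to each other and to the cytoskeleton, were lower. Syn1 had 404, 570, 627 and 607 CPM in vehicle and 158, 272, 254 and 290 CPM in pyraclostrobin. The lowest value of each group came from library 1, and even that vehicle library stood above every pyraclostrobin library. The log2 fold change of Syn1 was -1.18 (SE 0.20, adjusted p = 0.00097 by edgeR). Syn2 had 339, 270, 253 and 262 CPM in vehicle and 133, 118, 108 and 122 CPM in pyraclostrobin. Here library 1 was the highest of each group, the opposite of Syn1. The log2 fold change of Syn2 was -1.22 (SE 0.13, adjusted p = 7.4e-05 by edgeR).

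Both vesicle membrane proteins were lower too. Syp, a tetraspan protein of the vesicle membrane, had 992, 1037, 948 and 964 CPM in vehicle and 285, 509, 415 and 513 CPM in pyraclostrobin. The vehicle libraries were close together and the pyraclostrobin libraries were spread more widely, with library 1 lowest. The log2 fold change of Syp was -1.19 (SE 0.17, adjusted p = 0.00035 by edgeR). Sv2a, the glycoprotein to which the antiepileptic levetiracetam binds, had 400, 550, 533 and 537 CPM in vehicle and 184, 311, 256 and 366 CPM in pyraclostrobin. It was the least changed of the genes, and its highest pyraclostrobin library came closest to its lowest vehicle library. The log2 fold change of Sv2a was -0.85 (SE 0.19, adjusted p = 0.0058 by edgeR). This call did not pass the threshold when pyraclostrobin library 2 or 3 or vehicle library 2, 3 or 4 was left out, with adjusted p up to 0.0203, and the log2 fold change then lay between -0.96 and -0.81.

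The fusion proteins moved by similar amounts. Snap25, the SNARE protein of the plasma membrane, had 524, 513, 504 and 461 CPM in vehicle and 182, 248, 198 and 247 CPM in pyraclostrobin. Its vehicle libraries varied little and all lay far above the pyraclostrobin libraries, and the log2 fold change was -1.19 (SE 0.13, adjusted p = 7.4e-05 by edgeR). Vamp2, the SNARE protein of the vesicle, had 1519, 1347, 1320 and 1312 CPM in vehicle and 480, 711, 620 and 697 CPM in pyraclostrobin. Library 1 was the highest vehicle library and the lowest pyraclostrobin library for both Snap25 and Vamp2. The log2 fold change of Vamp2 was -1.13 (SE 0.13, adjusted p = 0.00012 by edgeR).

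The regulators of fusion and the transporter showed the larger declines. Cplx1 had 507, 574, 563 and 606 CPM in vehicle and 132, 273, 225 and 277 CPM in pyraclostrobin, with a log2 fold change of -1.31 (SE 0.20, adjusted p = 0.00057 by edgeR). Syt1 had 787, 1398, 1341 and 1322 CPM in vehicle and 355, 473, 403 and 537 CPM in pyraclostrobin. For both genes library 1 was the lowest of each group, and vehicle library 1 of Syt1 lay far below the other 3. The log2 fold change of Syt1 was -1.46 (SE 0.19, adjusted p = 0.00024 by edgeR). Slc17a7, which marks glutamatergic neurons of the cortex, had 320, 305.9, 351 and 299.5 CPM in vehicle and 111, 106, 74.6 and 135 CPM in pyraclostrobin. Its libraries numbered 1 lay within the range of the others, and its log2 fold change of -1.58 (SE 0.17, adjusted p = 7.1e-05 by edgeR) was the largest of the 9. Without the libraries numbered 1 in both groups, all 9 genes were again lower, among 4874 genes called in both directions together. That fit used a filter that asked for fewer libraries and called more genes than the main fit. A result of 9 of 9 is therefore less particular to these genes there.

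**Figure D1:**
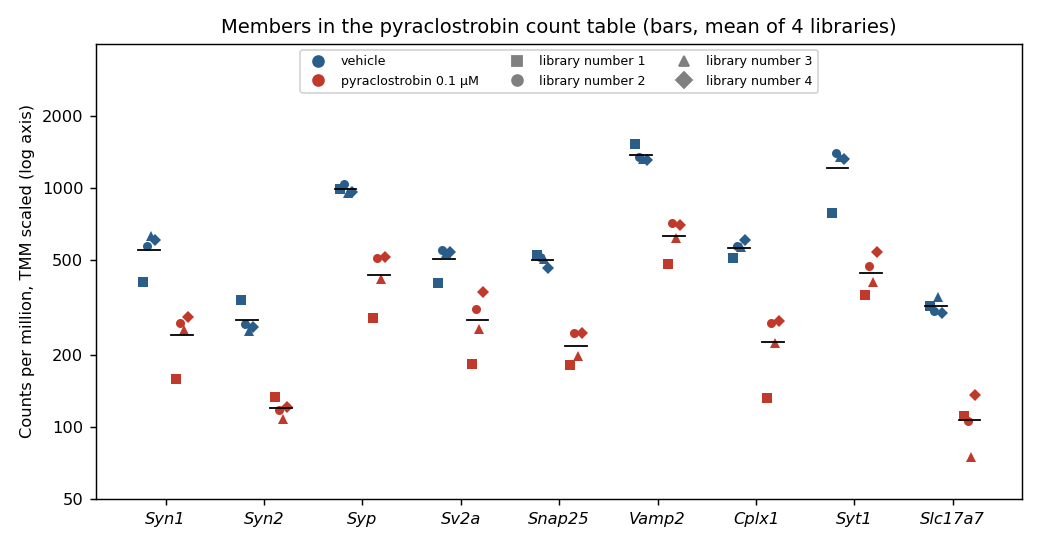
Level of each of the 9 genes (x axis) in CPM after TMM scaling (log y axis), with 1 point per library, the marker shape giving the library number and the bar giving the mean of 4 libraries. The 4 pyraclostrobin libraries sit below the 4 vehicle libraries for every gene, closest for Sv2a (366 against 400 CPM).

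Lists of other genes of the release machinery were examined beside them, 71 genes in all, of which 68 were tested. In pyraclostrobin 26 of the 68 were lower and 2 were higher, against 9.22% lower and 12.1% higher over all genes, with a median log2 fold change of -0.65. Of the SNARE and priming genes, 10 of 18 were lower, led by Vamp1, a relative of Vamp2 (log2 fold change -2.09, from 9.21 to 2.13 CPM), and Cadps2, a priming factor for dense-core vesicles (-1.86). Of the other vesicle membrane genes, 9 of 22 were lower, led by the small GTPase Rab3b (-1.65). Of the active zone genes, 2 of 12 were lower (Ppfia4, a liprin, at -1.52, and Ppfia3 at -0.98) and 1 was higher (Ppfia1, at 0.74). Of the endocytosis genes, 5 of 12 were lower and Ston2, a clathrin adaptor that sorts synaptotagmin, was higher (1.42, from 23.1 to 61.6 CPM). None of 4 other vesicular transporters passed the threshold, and the GABA transporter Slc32a1 had a log2 fold change of -1.33 (SE 0.38, adjusted p = 0.0184 by edgeR).

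Cell type markers moved in the same libraries. Unlike the values of single genes, the sums of markers are in CPM of the plain library totals, without TMM scaling. The summed level of 10 neuron markers was 11412 to 11952 CPM in vehicle and 5976 to 7169 CPM in pyraclostrobin, and 9 of the 10 were lower, with a median log2 fold change of -0.95 against -1.19 for the vesicle genes. The sum of 8 astrocyte markers was 669 to 1187 CPM in vehicle, and in pyraclostrobin it was 3827 CPM in library 1 and 1101 to 1257 CPM in the others, although only 1 of 7 tested astrocyte genes (Gja1) passed the threshold. Microglia markers summed to 19.9 to 28.3 CPM in vehicle and 75.5 to 133 CPM in pyraclostrobin, and 5 of 5 tested were higher, while Aif1 and P2ry12 had at most 4 counts in any library. Trem2 (4 to 11 counts in vehicle) and Csf1r (5 to 20) reached the filter of 10 counts in 4 libraries only with the pyraclostrobin libraries. Their rise was thus favoured by the filter, and the 5 of 5 is not read as a result. Oligodendrocyte lineage markers summed to 99.3 to 197 and 203 to 329 CPM, with 2 of 6 tested higher and 1 lower. Endothelial and mural markers summed to 13.4 to 20.04 and 49.8 to 66.7 CPM, with 3 of 3 tested higher and Cldn5 at 0 in every library. Pdgfrb (8 to 19 counts in vehicle) likewise reached the filter only with the pyraclostrobin libraries. Cspg4 is counted both here and in the oligodendrocyte list. Pecam1, Flt1, Vtn and Rgs5, with at most 10 counts in any library, were not tested. Fibroblast markers summed to 23.4 to 59.4 and 130 to 281 CPM, with 3 of 4 tested higher. The part of these changes in the levels of the vesicle genes was not tested. In bulk RNA of this kind, fewer neurons and less RNA per neuron cannot be told apart.

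In the screen, values are deviations on the log2 scale from the median of each gene, so they give differences between libraries and no levels. Over the 49 vehicle libraries the SD of a gene was 0.10 (Vamp2) to 0.18 (Slc17a7), and over the 297 chemicals, each taken as the median of its libraries, it was 0.11 (Sv2a) to 0.22 (Syt1). Most chemicals left these genes inside the vehicle range. For 245 of the 297 chemicals no gene lay below the range of the vehicle libraries, for 52 at least 1 did, for 7 at least 5 did, and for 4 all 9 did. Only 2 chemicals had a gene above the vehicle range, in both cases Syn2. Among the single genes, Syn1 was below the vehicle range for 24 chemicals, Slc17a7 for 17, Syt1 for 15, Syn2 and Sv2a for 14 each, Vamp2 for 12, Snap25 for 10, Cplx1 for 8 and Syp for 7. The same counts were not made over all genes of the screen, so they are a description only. For Syn1 the lowest vehicle library was at -0.15, and the median was 0.07 in vehicle and 0.02 over the chemicals. One vehicle library had a wider spread over all genes than the others (SD 0.52 against 0.44 for the next) and was the highest vehicle library for 5 of the genes and the lowest for Syn2. Without it, 22 chemicals had Syn2 below the vehicle range in place of 14, and Syp and Snap25 were above it for 2 chemicals each in place of 0.

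The 5 chemicals with the lowest mean over the 9 genes were pyraclostrobin (0.1 µM, -0.83), trifloxystrobin (10 µM, -0.82), fenamidone (10 µM, -0.78), fenpyroximate (0.1 µM, -0.61) and famoxadone (10 µM, -0.52). All 5 inhibit the mitochondrial respiratory chain, fenpyroximate at complex I and the others at complex III. The 5 highest were dichlorprop (0.22), fenoxaprop-ethyl (0.18), ethofumesate (0.17), boscalid (0.17) and milbemectin (0.15), all within the vehicle range of -0.26 to 0.34 for this mean. Below that range lay 9 chemicals, and above it 0. The upper limit came from the vehicle library of widest spread. Without it the next highest vehicle mean was 0.19, and dichlorprop lay above that. In 13 chemicals with 2 libraries, the libraries differed by a median of 0.18 for a gene, and by up to 0.94 (Slc17a7 in picloram), so for a chemical with 1 library a change near 0.2 is within the difference between duplicates.

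**Figure D2:**
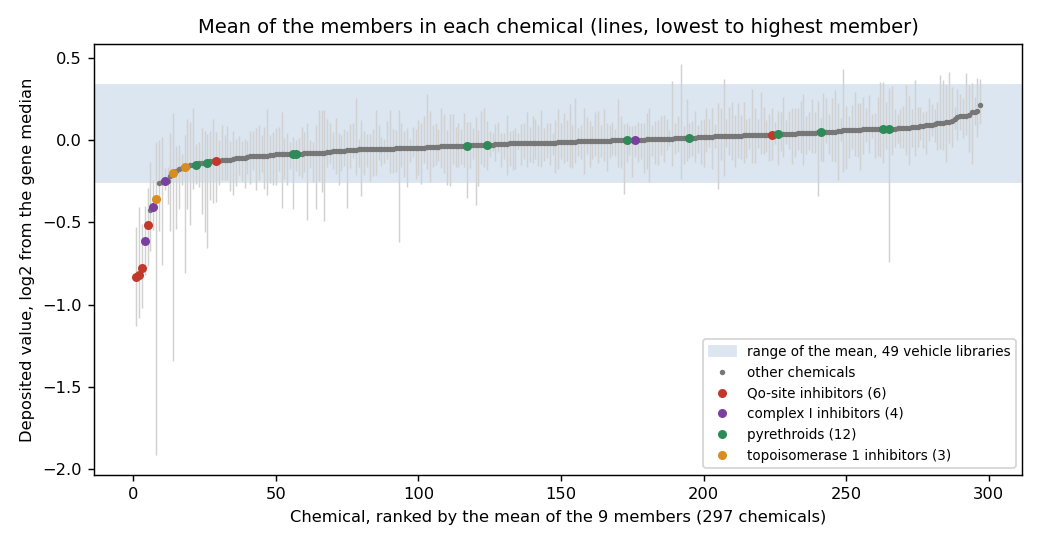
Mean of the 9 genes in each of the 297 chemicals (points, log2 deviation from the gene median), ranked from lowest to highest on the x axis, with a line from the lowest to the highest gene and a band for the range of the mean over 49 vehicle libraries (-0.26 to 0.34, or to 0.19 without the vehicle library of widest spread, which leaves dichlorprop above it). The lowest points are respiratory chain inhibitors, and the long downward line of the topoisomerase 1 inhibitors is Syt1, down to -1.92 in camptothecin.

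Inhibitors of the Qo site of complex III, where ubiquinol is oxidized, were then compared as a class with vehicle. The class held 6 chemicals: pyraclostrobin, trifloxystrobin, azoxystrobin, fluoxastrobin, famoxadone and fenamidone. All 9 genes were lower in the class, against 15.1% of 13304 genes lower and 8.23% higher at an adjusted p of 0.05 by limma. The library of pyraclostrobin in the screen is also library 1 of the count table, so the comparisons are not independent, and all comparisons in the screen share the same vehicle libraries. Syn1 had the largest difference, at -0.69 (SE 0.08, adjusted p = 5.4e-09 by limma), with 5 of 6 chemicals below the lowest vehicle library. Syt1 was at -0.61, Cplx1 at -0.59, Syp at -0.57, Slc17a7 at -0.55 and Snap25 at -0.52. Syn2 (-0.45), Sv2a (-0.39) and Vamp2 (-0.37) had the smallest differences, and the highest adjusted p among the 9 genes was 3.4e-05 (Slc17a7, limma). The fit gave chemicals and vehicle libraries a shared variance, but the chemicals were spread more widely. Their SD was 0.38 against 0.15 in vehicle for Syn1, and 0.52 against 0.18 for Slc17a7. The class SE and p-values are therefore set mostly by vehicle and understate the spread between chemicals.

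The chemicals of the class were unequal. Syn1 was at -0.91 in trifloxystrobin, -0.87 in pyraclostrobin, -0.76 in famoxadone, -0.72 in fenamidone, -0.38 in fluoxastrobin and 0.08 in azoxystrobin, and only azoxystrobin was within the vehicle range of -0.15 to 0.56. Syt1 was at -1.02 in fenamidone, -1.01 in trifloxystrobin, -0.96 in pyraclostrobin and -0.62 in famoxadone, whereas fluoxastrobin (0.05) and azoxystrobin (0.17) were within the vehicle range. Slc17a7 was at -1.08 in trifloxystrobin, -0.96 in fenamidone and -0.79 in pyraclostrobin, and famoxadone, at -0.34, was inside its wider vehicle range of -0.38 to 0.48. Doses differed: azoxystrobin and pyraclostrobin were both given at 0.1 µM, fluoxastrobin at 1 µM and the other 3 at 10 µM. At the shared dose of 0.1 µM the mean of the 9 genes was -0.83 in the 1 pyraclostrobin library and -0.02 and 0.09 in the 2 azoxystrobin libraries, a difference that cannot be tested with 1 library. In duplicate libraries, the mean of the 9 genes was -0.42 and -0.61 for famoxadone and -0.62 and -0.93 for fenamidone.

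Complex I inhibitors were rotenone (0.01 µM), fenpyroximate (0.1 µM), pyridaben (0.1 µM) and tebufenpyrad (0.01 µM). In this class 7 of the 9 genes were lower, against 5.65% of all genes lower and 1.33% higher at an adjusted p of 0.05 by limma. Syn1 again had the largest difference, -0.49 (SE 0.08, adjusted p = 8.5e-05 by limma), followed by Syt1 (-0.40), Cplx1 (-0.39), Syp (-0.38), Snap25 (-0.32), Syn2 (-0.29) and Vamp2 (-0.28). The difference was -0.27 for Slc17a7 (adjusted p = 0.0778 by limma) and -0.19 for Sv2a (adjusted p = 0.0618 by limma), and neither passed the threshold. Here too the SE and p-values understate the spread between chemicals, with an SD for Syn1 of 0.27 against 0.15 in vehicle. The mean of the 9 genes was -0.61 in fenpyroximate, -0.41 in pyridaben, -0.38 and -0.11 in the 2 rotenone libraries and 0.00 in tebufenpyrad, so tebufenpyrad did not stand apart from vehicle. Without fenpyroximate only Syn1 passed the threshold, without pyridaben 4 genes did, and without tebufenpyrad all 9 did. Whether the complex I and Qo-site classes differ was not tested.

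**Figure D3:**
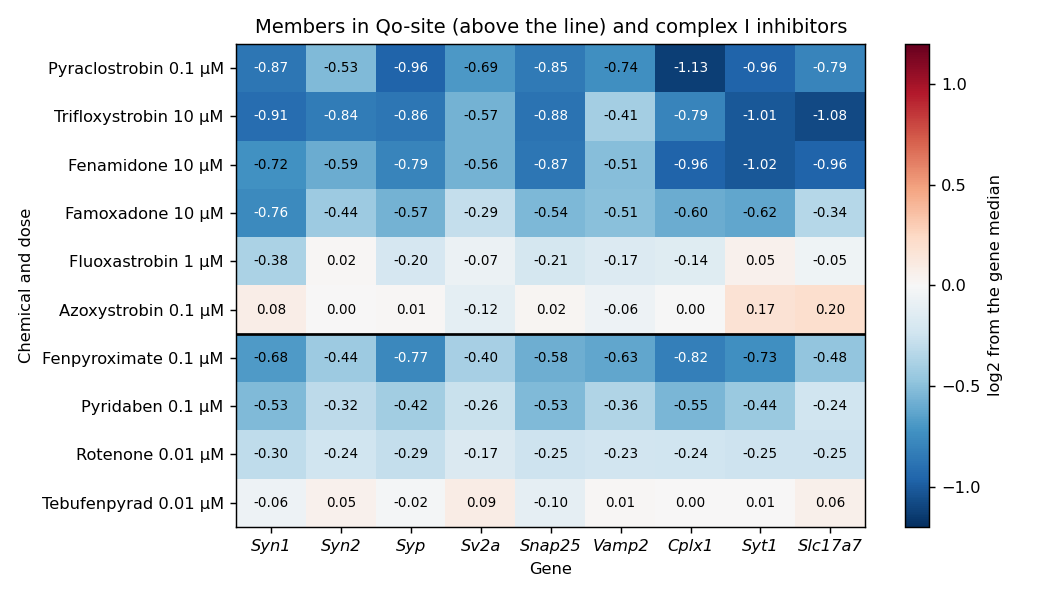
Log2 deviation of each of the 9 genes (columns) from its median in the screen for each Qo-site inhibitor (upper rows) and complex I inhibitor (lower rows), as the median of the libraries of a chemical at the dose given. Values in the upper 4 rows and in fenpyroximate, pyridaben and rotenone are negative for every gene, down to -1.13 for Cplx1 in pyraclostrobin, and azoxystrobin and tebufenpyrad are close to 0.

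The lists of other release machinery genes were read in both classes. With Qo-site inhibitors, 46 of 70 were lower, 1 was higher and 23 did not pass the threshold, with a median difference of -0.32 against -0.01 over all genes. The largest declines were Slc30a3, the vesicular zinc transporter (-1.06), Syt2, a calcium sensor related to Syt1 (-0.90), Slc32a1 (-0.86) and Rph3a, an effector of Rab3 (-0.69), and the single gene that rose was the small GTPase Rab27b (0.39). Slc30a3 and Syt2 had wide SE (0.28 and 0.26) and had too few counts to be tested in the pyraclostrobin comparison. With complex I inhibitors, 34 of 70 were lower, 0 were higher and 36 did not pass the threshold, and the declines were led by Vamp1 (-0.96), Sv2c (-0.82), Syn3 (-0.65) and Slc32a1 (-0.55). All 10 neuron markers were lower in both classes, with median differences of -0.42 and -0.32. Other markers were less uniform. With Qo-site inhibitors 2 of 7 astrocyte, 0 of 4 microglia, 1 of 6 oligodendrocyte, 2 of 4 endothelial or mural and 2 of 4 fibroblast markers were higher. Cspg4 is counted in both the oligodendrocyte and the endothelial or mural tally. With complex I inhibitors no marker of these lists passed the threshold upward. Mog, a myelin gene of oligodendrocytes, was lower in both classes (-0.43 and -0.63), and no other marker of these lists was lower. Their part in the levels of the vesicle genes was not tested.

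Topotecan, a topoisomerase 1 inhibitor used as a positive control in this screen, gave a different pattern. At 0.3 µM in 32 libraries, Syt1 fell far below vehicle, 4 other genes were lower by small amounts, Slc17a7 and Sv2a were slightly higher, and Vamp2 and Cplx1 did not pass the threshold. Across all genes 20.9% were lower and 24.8% higher at an adjusted p of 0.05 by limma, so 5 lower and 2 higher of 9 is to be read against a comparison in which many genes were called in each direction. Syt1 ranged from -1.85 to -0.72 in topotecan, with a median of -1.34, and from -0.28 to 0.46 in vehicle, with a median of 0.05. All 32 topotecan libraries were below all 49 vehicle libraries, and the difference was -1.38 (SE 0.05, adjusted p = 1.4e-39 by limma), or 2.60-fold. How many of all genes separate in this way was not counted, so the lack of overlap is a description only.

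The synapsins and Snap25 overlapped with vehicle. Syn1 ranged from -0.52 to 0.16 (median -0.20) in topotecan and from -0.15 to 0.56 (median 0.07) in vehicle, and 22 of 32 topotecan libraries were below the vehicle range. Its difference was -0.31 (SE 0.03, adjusted p = 2.5e-12 by limma). Syn2 ranged from -0.74 to 0.29 in topotecan and from -0.40 to 0.39 in vehicle, with 5 of 32 libraries below the vehicle range. The difference of Syn2 was -0.21 (SE 0.04, adjusted p = 3.3e-05 by limma). Snap25 ranged from -0.60 to 0.01 in topotecan and from -0.26 to 0.45 in vehicle, with 8 of 32 below, and its difference was -0.16 (SE 0.03, adjusted p = 1.3e-05 by limma). These genes were lower on average, but most topotecan libraries of Syn2 and Snap25 could not be told from vehicle.

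The remaining differences were within 0.12. Syp was lower by a difference of -0.07 (SE 0.03, adjusted p = 0.0151 by limma), and with the other chemicals in place of vehicle as the reference it did not pass the threshold (-0.04, adjusted p = 0.221 by limma). Slc17a7 was higher by 0.12 (SE 0.04, adjusted p = 0.0052 by limma) and Sv2a by 0.07 (SE 0.03, adjusted p = 0.0232 by limma), with no library of either above the vehicle range. The difference was -0.05 for Vamp2 (SE 0.02, adjusted p = 0.0647 by limma) and -0.05 for Cplx1 (SE 0.03, adjusted p = 0.207 by limma). Related inhibitors, with 1 library each, were close to this profile: Syt1 was at -1.92 in camptothecin (0.3 µM) and at -0.81 in irinotecan (10 µM), and the other 8 genes lay between -0.42 and 0.03.

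**Figure D4:**
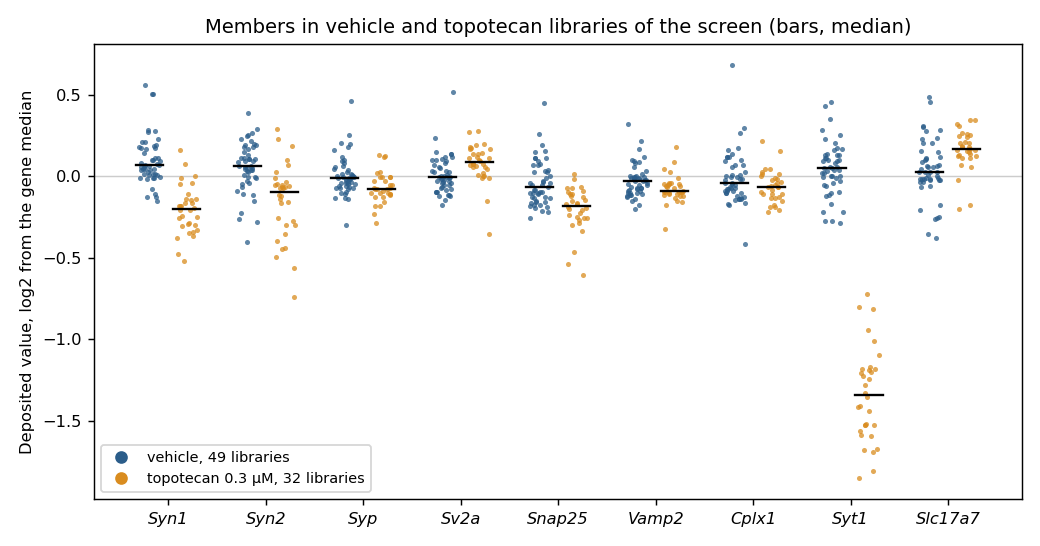
Log2 deviation from the gene median (y axis) of each of the 9 genes in the 49 vehicle libraries and the 32 libraries of topotecan at 0.3 µM, with 1 point per library and a bar at the median. Of the 9 genes only Syt1 is separated without overlap, at -1.85 to -0.72 in topotecan against -0.28 to 0.46 in vehicle. The share of all genes that separate in this way was not counted.

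The differences with topotecan were set beside gene length, which was known for 89.7% of the genes tested. Over all genes under 10 kb (2865 genes) the median difference with topotecan was 0.08, and over genes of 10 to 30 kb (3735 genes) it was 0.07. It was 0.01 for 30 to 100 kb (3444 genes), -0.17 for 100 to 300 kb (1450 genes) and -0.74 for genes over 300 kb (438 genes). Syt1, at 513 kb, was the only one of the 9 genes in the last class, and 56 of its 438 genes (12.8%) had a lower difference than Syt1. Syn2 (148 kb, -0.21) was near the median of its class, and Syn1 (60.5 kb, -0.31) was below the tenth percentile of its class, which was at -0.20. Slc17a7, Sv2a, Syp and Vamp2, all under 15 kb, lay within 0.15 of the medians of their classes. In the release machinery lists 41 of 70 genes were lower and 14 higher, against 20.9% lower and 24.8% higher over all genes. The largest declines were in Cadps2 (-1.72), Erc2 (-1.60), Rims1 (-1.35) and Cadps (-1.23), and the largest rises were in Slc17a6, the other cortical vesicular glutamate transporter (0.58), Rph3a (0.55), Syt13 (0.41) and Slc17a8 (0.38). Among markers, 7 of 10 neuron genes were lower and 2 higher, and 5 of 7 astrocyte genes were lower.

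**Figure D5:**
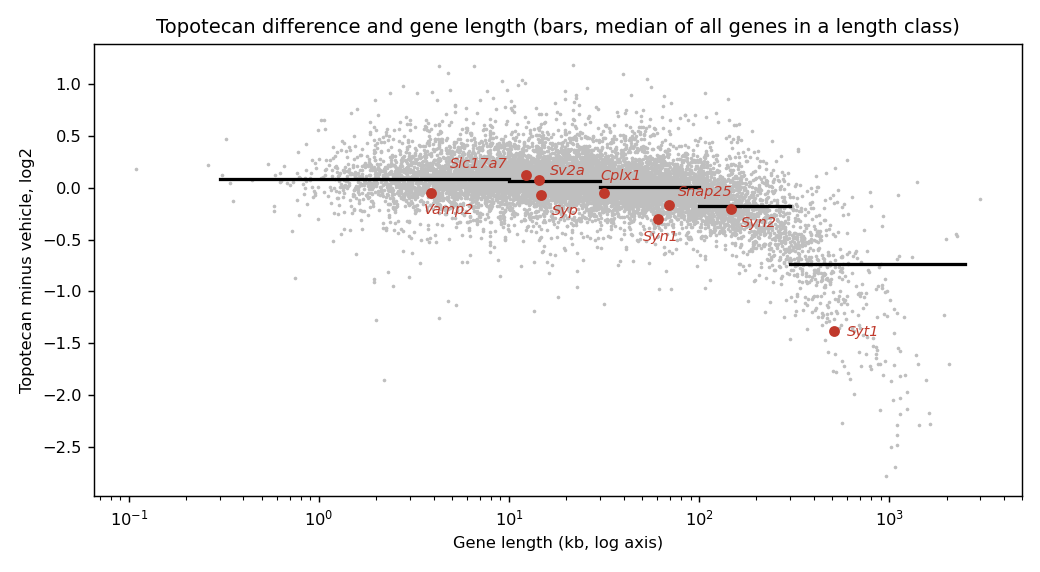
Difference between topotecan and vehicle (log2, y axis) against gene length in kb (log x axis) for all genes with a known length (grey points) and the 9 genes (red), with bars at the median of each length class, from 0.08 under 10 kb to -0.74 over 300 kb. Syt1 lies at -1.38 and the other 8 genes between -0.31 and 0.12.

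Pyrethroids, insecticides that hold voltage-gated sodium channels open, were compared as a class of 12 chemicals with vehicle. Syn2 was the only one of the 9 genes that passed the threshold, against 2.13% of all genes lower and 1.32% higher, so 1 of 9 is a small count. The 12 chemicals ranged from -0.74 to 0.13 for Syn2, with a median of -0.08, and the vehicle libraries from -0.40 to 0.39, with a median of 0.06. The difference was -0.21 (SE 0.06, adjusted p = 0.0249 by limma), with an SD of 0.24 over the chemicals and 0.15 over vehicle. It rested on 3 chemicals with a cyano group, fenpropathrin (-0.74), cyfluthrin (-0.42) and cypermethrin (-0.35), all at 10 µM, and did not pass the threshold without any 1 of them (-0.15, -0.18 and -0.19, with adjusted p up to 0.124 by limma). Esfenvalerate, which also has a cyano group and was given at 10 µM, was at -0.04. In fenpropathrin the other genes did not follow Syn2: Syp was at 0.32, Syn1 at 0.30 and Syt1 at 0.26. The other 8 genes had class differences between -0.14 (Slc17a7, adjusted p = 0.192 by limma) and 0.04. In the release machinery lists Sv2b (-0.40), Cplx2 (-0.26) and Erc1 (-0.15) were lower and Syt4 was higher (0.21).

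Syn2 also stood apart from most of the other genes in clusters 1 and 4 of the study. These clusters were drawn by the authors from the expression values of the same libraries, so the values are given as a description with no test. In cluster 1, which holds 7 chemicals, Syn2 had a median of -0.42 and was below the vehicle range in 5 of the 7, and the medians of the other 8 genes lay between -0.09 and 0.07. In cluster 2, with 8 chemicals and most of the respiratory inhibitors above, the medians of all 9 genes lay between -0.70 (Syn1) and -0.35 (Sv2a). In cluster 4, with 4 chemicals, Syn2 had a median of 0.32, Slc17a7 had one of 0.25, and none of the genes left the vehicle range. The medians of the other 7 genes lay between -0.05 and 0.12. Mancozeb, a dithiocarbamate in cluster 1, had Syn2 at -0.41 and -0.42 in its 2 libraries and the mean of the 9 genes at -0.08 and -0.05.

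How alike the 9 genes were across the screen was described by Spearman's rho over the 297 chemicals, each taken as its median. The chemicals share vehicle, batch correction and culture composition, so these values carry no test. Over the 36 pairs rho ranged from 0.17 (Syn2 and Sv2a) to 0.65 (Vamp2 and Cplx1), with a median of 0.36. Over the 49 vehicle libraries alone it ranged from 0.02 (Syn1 and Syn2) to 0.73 (Vamp2 and Cplx1), again with a median of 0.36. The synapsins were thus among the least alike of the pairs in vehicle cultures, and Vamp2 with Cplx1 was the most alike pair in both sets. This order did not hold over the 32 topotecan libraries, where the median rho was 0.46. There rho was 0.56 for Syn1 with Syn2, 0.57 for Vamp2 with Cplx1, and highest for Syn2 with Snap25 (0.73). The mean of the 9 genes had a rho of 0.69 with the median of the neuron markers over the chemicals and of 0.59 over the vehicle libraries. Among the genes most alike the mean of the 9 genes, each scaled by its SD, out of 13295 other genes, were Tubb4a (rho 0.67), Arf3 (0.67), Rab6b (0.65) and Ywhag (0.64). Over the vehicle libraries their rho was 0.69, 0.65, 0.60 and 0.70 in the same order.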

How the data were processed

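RNA of 405 samples from mouse cortical neuron cultures was sequenced by the study with a TruSeq kit that does not mark strand, as paired-end reads. Per the study's methods, the authors used TagDust to filter reads and TopHat to align them to the mm9 genome, removed reads on ribosomal RNA genes and assigned reads to exons of RefSeq models joined by symbol. The pyraclostrobin table was deposited as raw counts, which the authors did not normalize. For the screen table, the authors deposited log10 RPKM values of genes detected in nearly all samples, after quantile normalization, centring of each gene on its median and correction for batches of culture and sequencing in a mixed analysis of variance. These are deviations, not levels. Their depth is unknown, a pseudocount has no meaning for them, and the labels name no batch. All values were multiplied onto the log2 scale.

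Samples were grouped by their labels. A table for sulforaphane and fenamidone, in which 6 columns carry a single name, could not be matched to samples and was not used here. Counts were fitted with edgeR 4.0.16 in R 4.3.3 (quasi-likelihood test, TMM scaling, genes that reached 10 counts in 4 or more libraries, threshold 0.01). The screen was fitted with limma 3.58.1 (threshold 0.05), with 1 value per chemical, the median of its libraries, for classes and 1 value per library for topotecan. In a class fit, chemicals and vehicle libraries shared a variance for each gene, which the vehicle libraries mostly set. P-values were adjusted by Benjamini-Hochberg over all genes tested, and tests were two-sided. Both fits were tested on simulated data. For the screen both groups were drawn with the vehicle SD, so the simulation cannot check classes whose chemicals were spread more widely. No label says that replicates came from separate cultures, and the study's legend for pyraclostrobin names fewer biological replicates than libraries, so p-values measure only the spread between these samples. Gene lengths and exon overlaps came from an mm9 annotation, and promoters from RefSeq on GRCm38.p6, which held no entry for Snap25 and Vamp2. The 9 genes, the lists and the classes were chosen with earlier results of these data known. Named beside them were up to 4 rises and 4 falls per comparison among the release machinery genes past the threshold, the 5 genes most alike in the screen (1 of which is not reported here), and the 5 lowest and 5 highest chemicals. Ppfia3, Gja1 and Slc32a1 were named in the pyraclostrobin comparison after their values were seen. Alternatives were a replicate block, DESeq2 1.42.0, the RLE size factors of edgeR, a fit of unfiltered genes, other thresholds, other references, variable genes only, and leaving out each library or chemical.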

Additional observations from a re-analysis of the deposited data

Results flagged for a closer look

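Vehicle library 1 of the count table lay apart from the other 3 vehicle libraries for Sv2a (400 CPM against 533 to 550) and for Syt1 (787 CPM against 1322 to 1398). On the log2 scale, its gap to the nearest library took a share of 0.903 of the whole range of the group in both cases. This was above Dixon's 95% critical value for 4 samples. Of 27 groups tested 2 passed, and chance alone passes about 5% of groups. Both genes were lower in pyraclostrobin with this library left out.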

How the results depend on the processing

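For pyraclostrobin, 2631 genes were called at the threshold of 0.01, 4301 at 0.05, 4874 without the libraries numbered 1 in both groups (chosen after seeing the data), and 1682 (without vehicle library 3) to 4052 (without vehicle library 1) when each library was left out, and 8 or 9 of the 9 genes passed in each. DESeq2 called 3365 genes, other size factors 2650 and no filter 3000. The paired analysis, with the column number as a replicate block, called 3135 genes and all 9 of the vesicle genes and changed no call among them. Deviations of same-numbered libraries had correlations of 0.376, 0.102, -0.0287 and 0.161, and pyraclostrobin library 2 correlated best with vehicle library 4 (0.218). The libraries numbered 1 had the highest correlation of all pairings and correlated negatively with every other library of the other group. Deviations were taken from the mean of each group, so the distance of library 1 moves those of the other libraries the opposite way. The check therefore cannot decide a pairing for the remaining numbers. The study's legend speaks of matched vehicle controls, but the number was not taken as a pairing in the main fit.

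For topotecan, 1784 genes were called when only the 5121 variable genes were tested, with 1 of the 9 genes lower and 0 higher, since Syt1 is the only one of the 9 among them, and 1 was higher at a threshold of 0.01. With Qo-site inhibitors all 9 genes were lower in each alternative run, and 2061 genes were called at 0.01. With complex I inhibitors 476 genes were called at 0.01, 605 against the other chemicals, and 64 (without fenpyroximate, 1 of the 9 lower) to 1358 (without tebufenpyrad, 9 lower) when a chemical was left out. With pyrethroids 115 genes were called at 0.01, 60 against the other chemicals and 160 (without fenpropathrin) to 705 (without d-cis,trans-allethrin) when a chemical was left out. Among the 9, 0 were lower in the first pair of these settings and 0 to 1 in the last. Against the other chemicals the pyrethroid difference changed sign for Syn1 (0.0181), Cplx1 (0.0363), Sv2a (0.0252) and Syt1 (0.0686). When a chemical or the widest vehicle library was left out, the difference ranged from -0.0147 to 0.0333 for Syp and from -0.0191 to 0.0183 for Cplx1. None of these passed the threshold in the main analysis. The cause of these changes was not tested. The comparison of sulforaphane and its alternatives were not run.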
